A study of Mus musculus with 2 samples.

Results

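The Pappa Nppc basal keratinocytes are cells of the attached layer of the mouse tongue epithelium that were chosen by their transcripts for Pappa, Nppc and Hmcn1. There were 373 of them among 1477 basal cells and 4078 cells in all. A cell counted as basal when the adhesion genes Col17a1, Itga6 and Itgb4 together reached 10 of every 10000 UMIs (unique molecular identifiers, 1 for each captured transcript) and 6 mitosis genes (Top2a, Mki67, Ube2c, Cenpf, Birc5 and Nusap1) stayed under 10 of every 10000. A basal cell was a Pappa Nppc cell when Pappa, Nppc and Hmcn1 together had at least 3 UMIs and more UMIs than Npnt, Frem2 and Sema3c together. The measured UMIs of these genes thus chose the cells, and their levels are given below as a description.

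The tongue surface is a stratified epithelium that renews from a basal layer of Krt5, Krt14 and Krt15 cells, which sit on a basement membrane and give rise to the Krt4 and Krt13 cells above them. PAPP-A, the protein of Pappa, is a secreted metalloprotease that cuts IGF-binding proteins and so frees insulin-like growth factors. Nppc encodes C-type natriuretic peptide, which signals through the receptor NPR2, and Hmcn1 encodes hemicentin, a large matrix protein. Npnt and Frem2 encode proteins of the basement membrane, and Sema3c a secreted semaphorin.

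The study asked how cells of this epithelium vary over the day. Tongue epithelium of male B57BL/6 mice aged 8 to 12 weeks was taken at Zeitgeber time 0 (ZT0) or 12 (ZT12), lights on and lights off by convention. Cells were freed with TrypLE, living cells (7-AAD negative) were sorted and 10x 3' v2 libraries were made, 1 library per time. No other treatment or genotype is given in the labels, and they do not give the number of mice behind a library. Library and time of day therefore cannot be told apart, no test was made, and every interval covers counting error only.

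The filters left 1525 cells at ZT0 and 2553 at ZT12. Basal cells numbered 509 and 968, and 2 barcodes occurred in both libraries, none of them in a Pappa Nppc cell. The comparisons below use 3 kinds of basal cell. Beside the Pappa Nppc cells these are 213 and 357 cells (ZT0 and ZT12) with at least 3 UMIs of Npnt, Frem2 and Sema3c and more of these than of the Pappa genes, called Npnt-type cells here, and 155 and 379 cells of neither kind. Both of the latter kinds together are the other basal cells. As cells that should lack basal genes, 554 and 973 reference cells with under 2 of every 10000 UMIs from the adhesion genes were used.

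Pappa Nppc cells were 141 of 509 basal cells at ZT0 (27.7%, Clopper-Pearson 95% interval 23.9 to 31.8) and 232 of 968 at ZT12 (24.0%, 21.3 to 26.8). The ratio of these shares was 0.865 (0.699 to 1.07), so no difference in share was detectable at this depth. Npnt-type cells were 41.8% and 36.9%, with a ratio of 0.881 (0.742 to 1.05), and cells of neither kind were 30.5% and 39.2%, with a ratio of 1.29 (1.06 to 1.56). Pappa Nppc cells had a median of 25528 UMIs at ZT0 and 20654 at ZT12, against 21539 and 17979 in the other basal cells. With every cell thinned to 5000 UMIs and the whole rule applied at 1 UMI or more, the shares were 24.5% and 22.5%, and with a limit of 1 UMI per 10000 they were 29.3% and 26.5%.

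Pappa carried the rule. It gave 86.9% of the UMIs of the 3 genes in Pappa Nppc cells at ZT0 and 89.1% at ZT12, and 140 of 141 and 232 of 232 cells had a Pappa UMI, with a median of 6 and 9 and a highest value of 125 and 65. Pappa (ENSMUSG00000028370, mm10 chr4:65124174-65357509) was at 446 CPM in the ZT0 library and 624 CPM in the ZT12 library, where CPM is UMIs of the gene per 1000000 UMIs of the summed cells. In other basal cells it was at 19.3 and 23.7 CPM.

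Nppc was found in few of the cells named for it. At least 1 Nppc UMI was seen in 19 of the 141 cells at ZT0 (13.5%) and 49 of the 232 at ZT12 (21.1%). Nppc (ENSMUSG00000026241, chr1:86666291-86670571) was at 22.4 and 29.3 CPM in Pappa Nppc cells and at 0.989 and 0.946 CPM in other basal cells. It led the 3 genes in 3 cells at ZT0 and 1 at ZT12. Hmcn1 (ENSMUSG00000066842, chr1:150562524-150993435) was seen in 67 cells (47.5%) and 104 cells (44.8%), at 45.0 and 47.3 CPM against 7.91 and 4.73 CPM. All 3 genes were seen together in 12 and 33 cells, and Pappa alone in 67 and 112. The label therefore fits Pappa for nearly all cells and Nppc for a minority.

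Most Pappa Nppc cells were not free of the opposing genes. At least 1 UMI of Npnt, Frem2 or Sema3c was seen in 89 cells at ZT0 (63.1%) and 159 at ZT12 (68.5%). Npnt was at 4.14 and 8.42 CPM against 53.0 and 54.4 CPM in other basal cells, Frem2 at 13.3 and 18.4 against 67.6 and 73.5, and Sema3c at 38.4 and 46.1 against 124 and 104. These levels follow from the rule.

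**Figure D1:**
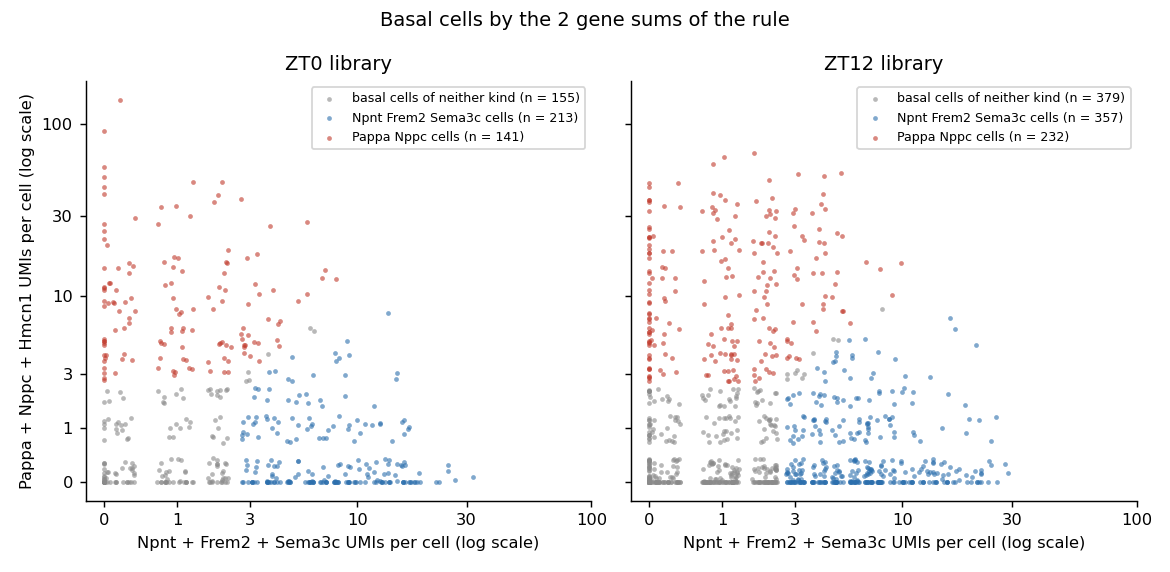
UMIs of Pappa, Nppc and Hmcn1 per cell (vertical axis, log scale) against UMIs of Npnt, Frem2 and Sema3c per cell (horizontal axis, log scale), 1 point per basal cell, shifted slightly at random so that points do not cover each other, with 1 panel per library and 1 colour per kind of cell. The 141 ZT0 and 232 ZT12 Pappa Nppc cells lie at 3 or more UMIs and above the diagonal, many of them with 1 or more UMIs of the opposing genes.

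The limit of 3 UMIs cut through a continuous range. At exactly 3 UMIs were 14 Pappa Nppc cells at ZT0 (9.93%) and 27 at ZT12 (11.6%), while 12 and 32 basal cells lay just outside at 2 UMIs. Hpgd, the gene for the enzyme that inactivates prostaglandins, was at 315 and 363 CPM in the cells at 3 UMIs and at 220 and 374 CPM in those at 2 UMIs. Crabp1, the gene for a cytoplasmic binding protein of retinoic acid, was at 30.5 and 90.3 CPM inside and 43.1 and 84.2 CPM outside. Another 21 and 32 basal cells had 3 or more UMIs but as many or more of the opposing genes. Their Hpgd was at 192 and 495 CPM and their Crabp1 at 49.8 and 144 CPM. For these 2 genes the values inside and outside lay within 2-fold of each other. Others lay farther apart over these few cells: Krt24 was at 64.3 and 18.1 CPM inside and 155 and 56.7 CPM at 2 UMIs, and Foxq1 at 67.7 and 4.01 CPM inside and 0 and 15.5 CPM at 2 UMIs. The 67.7 CPM of Foxq1 at ZT0 was 20 UMIs, all from 1 cell.

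Over all basal cells, Hpgd and Crabp1 were graded with the level of Pappa. In cells with no Pappa UMI (267 at ZT0 and 540 at ZT12) Hpgd was at 77.1 and 93.2 CPM. Below 1 Pappa UMI per 10000 (101 and 141 cells) it was at 213 and 246 CPM, from 1 to 2 (49 and 94 cells) at 316 and 504, and from 2 to 5 (52 and 87 cells) at 409 and 724. From 5 to 10 (25 and 59 cells) it was at 595 and 1242 CPM, and at 10 or more (15 and 47 cells) at 747 and 1770. Hpgd was thus in the same order as Pappa in both libraries. Crabp1 went from 15.8 CPM in the lowest to 270 CPM in the highest of these bands at ZT0, and from 21.1 to 474 CPM at ZT12, also in order.

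Other genes were ordered differently over the same bands. Foxq1, a forkhead transcription factor gene, went from 180 to 2.35 CPM at ZT0 and from 136 to 0.948 CPM at ZT12 between the lowest and the highest band. Krt15, a basal keratin, had its highest values in the middle bands, at 7454 and 9740 CPM (ZT0 and ZT12) from 1 to 2 Pappa UMIs per 10000. Krt17 was at 1116 and 1180 CPM without Pappa and at 229 to 516 CPM in the bands from 2 upward at ZT0. Median depth in the bands ran from 20619 to 29815 UMIs at ZT0 and from 17551 to 21389 at ZT12. Its part in the order was not tested.

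**Figure D2:**
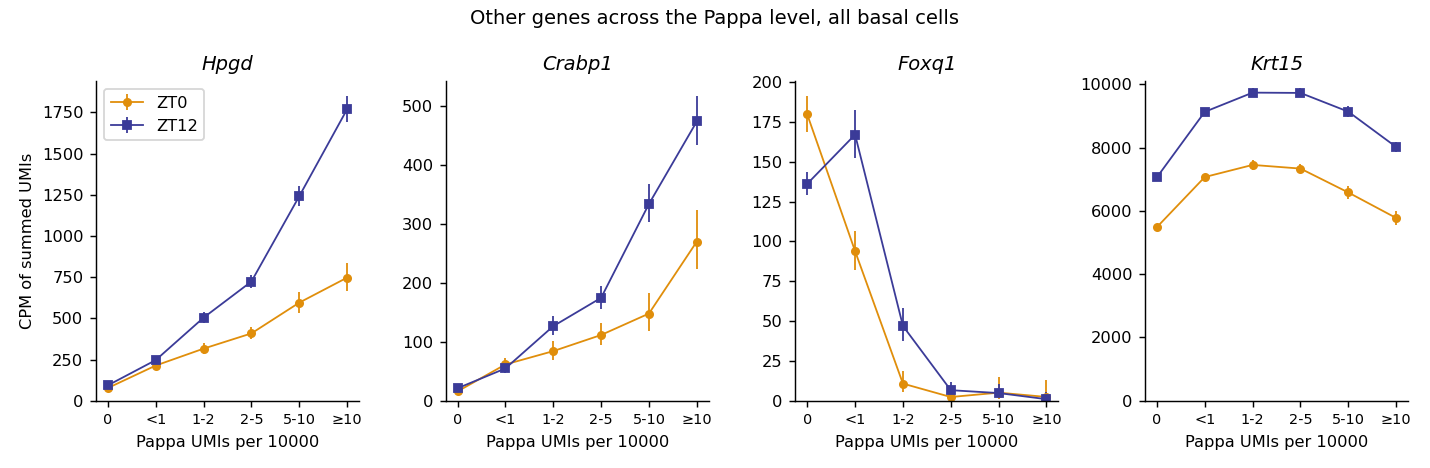
Summed level in CPM (vertical axis, linear) of Hpgd, Crabp1, Foxq1 and Krt15 in all basal cells, by Pappa UMIs per 10000 (horizontal axis), with 1 panel per gene, 1 line per library and bars for the Poisson 95% interval. Hpgd goes from 77.1 to 747 CPM at ZT0 and from 93.2 to 1770 CPM at ZT12, Crabp1 goes the same way, and Foxq1 goes from 180 to 2.35 CPM at ZT0.

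Outside the genes of the rule, few genes set the Pappa Nppc cells apart upward. A gene was called higher or lower when the mean of the CPM values of both groups was at least 20, the ratio of CPM plus 1 was at least 2-fold and its 95% interval excluded 1, in the same direction in both libraries. Against other basal cells 5 of 5659 measured genes were higher (0.0884% of all genes) and 41 were lower (0.725%). The 5 were Crabp1, Hpgd, Egfl6, Dusp6 and Slc7a5, and all but Slc7a5 were also higher against each other kind of basal cell on its own. Judged in the ZT0 library alone, 16 genes were higher and 67 lower, and in the ZT12 library alone 16 and 76. Over all measured genes the median log2 ratio was -0.03 at ZT0 and -0.06 at ZT12.

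Crabp1 had the largest ratio. It was at 144 CPM in Pappa Nppc cells at ZT0 and 275 CPM at ZT12, against 19.4 and 31.0 CPM in Npnt-type cells and 24.4 and 36.6 CPM in cells of neither kind. Crabp1 (ENSMUSG00000032291, chr9:54764748-54773110) was thus 6.74-fold higher than in other basal cells at ZT0 (5.67 to 8.06) and 8.10-fold higher at ZT12 (7.29 to 9.02). Hpgd (ENSMUSG00000031613, chr8:56294585-56321043) was at 487 and 1071 CPM, against 83.7 and 140 CPM in Npnt-type cells and 122 and 145 CPM in cells of neither kind. Its ratio to other basal cells was 4.92 (4.53 to 5.36) and 7.51 (7.13 to 7.91), respectively. The Npnt-type cells and the cells of neither kind lay close to each other for both genes. Hpgd and Crabp1, with Wfdc2, were named as markers of these cells with earlier results of these data known, so their ratios are no separate support.

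The other 3 genes had smaller ratios. Egfl6, for a secreted matrix protein with EGF repeats (ENSMUSG00000000402, chrX:166523007-166585720), was at 71.0 and 93.6 CPM against 27.0 and 22.6 CPM in other basal cells, 2.63-fold (2.19 to 3.17) and 4.14-fold (3.58 to 4.79) higher. Dusp6, for a phosphatase that acts on ERK and is switched on by ERK signalling (ENSMUSG00000019960, chr10:99263231-99267489), was at 74.6 and 48.7 CPM against 29.1 and 20.4, 2.57-fold (2.15 to 3.07) and 2.39-fold (2.00 to 2.85) higher. With a basal limit of 20 per 10000 the smaller log2 ratio of Dusp6 was 0.35 (-0.21 to 0.90), which ends its call. Slc7a5, for a transporter of large neutral amino acids (ENSMUSG00000040010, chr8:121881150-121907694), was at 62.2 and 86.6 CPM against 30.04 and 37.6, 2.07-fold (1.72 to 2.49) and 2.31-fold (2.02 to 2.63) higher. Against cells of neither kind its log2 ratio was 0.60 and 0.97, short of the 2-fold limit, and under 6 other alternatives the smaller log2 ratio of Slc7a5 lay between 0.84 and 0.999. The highest single cell held 3.64% of the Crabp1 UMIs and 3.63% of the Hpgd UMIs at ZT0, so no single cell carried them.

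Wfdc2, a gene of the whey acidic protein family, missed the limit at ZT0. Wfdc2 (ENSMUSG00000017723, chr2:164562413-164568510) was at 645 and 541 CPM in Pappa Nppc cells, 351 and 210 CPM in other basal cells and 6.30 and 18.7 CPM in reference cells. The log2 ratio to other basal cells was 0.88 at ZT0 and 1.36 at ZT12. Of the 3 given markers that the rule did not use, Hpgd and Crabp1 met the size rule and Wfdc2 did not.

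Hpgd and Crabp1 also stood apart cell by cell after depth was made equal. With every cell thinned to 5000 UMIs, Hpgd was seen in 69.5% of Pappa Nppc cells at ZT0 and 85.8% at ZT12 (88.7% and 94.8% before thinning, at the median depths above). In reference cells it was seen in 16.2% and 21.7% after thinning and in 49.8% and 56.4% before, at median depths of 38818.5 and 33054 UMIs. In Npnt-type cells the thinned shares were 19.7% and 28.9%, and in cells of neither kind 28.4% and 31.4%. Thinned Crabp1 was seen in 37.6% and 54.7% of Pappa Nppc cells (68.8% and 77.2% before) and in 10.5% and 10.4% of reference cells (24.4% and 25.4% before). The thinned share of Crabp1 in Npnt-type cells was 4.69% (2.27 to 8.46) and 9.80% (6.92 to 13.4), no higher than in the reference cells, so it is not read as expression. Free RNA was not measured, and the reference cells were not chosen for a lack of Crabp1. For Egfl6 the thinned shares were 25.5% (18.6 to 33.6) and 29.7% in Pappa Nppc cells against 7.58% and 7.40% in reference cells, with 63.8% and 66.4% against 39.5% and 31.0% before thinning. Thinned Egfl6 was seen in 10.3% and 7.28% of Npnt-type cells. In cells of neither kind it was seen in 17.4% (11.8 to 24.3) and 10.6%, so at ZT0 their interval overlapped that of Pappa Nppc cells.

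The letters before the start of the leading genes are given for the 2 genes with the largest ratios, each as the 250 bases upstream of the RefSeq start in GRCm38.p6, 5′ to 3′ on the gene's strand. Capitals mark a match to 1 of 6 motifs sought on both strands, here the TEAD motif GGAATG.
Crabp1: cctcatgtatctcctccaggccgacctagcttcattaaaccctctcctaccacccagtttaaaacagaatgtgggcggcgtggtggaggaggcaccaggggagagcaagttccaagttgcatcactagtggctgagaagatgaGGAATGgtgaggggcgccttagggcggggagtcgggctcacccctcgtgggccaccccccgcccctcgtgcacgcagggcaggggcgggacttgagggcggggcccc
Hpgd: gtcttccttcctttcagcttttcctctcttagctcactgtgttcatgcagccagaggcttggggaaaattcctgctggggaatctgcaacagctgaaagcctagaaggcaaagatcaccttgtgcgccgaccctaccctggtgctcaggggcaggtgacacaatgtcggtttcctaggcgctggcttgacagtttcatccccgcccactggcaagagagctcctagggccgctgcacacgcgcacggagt
The Crabp1 window lies at chr9:54764498-54764747 on the plus strand, and its match begins 107 bases before the start. The Hpgd window lies at chr8:56294302-56294551 on the plus strand and held none of the 6 motifs. GGAATG was found in 12.6% of 32851 such windows, so 1 match in a set of 4 genes with a window is a description of those letters and no more. The other motifs were TGANTCA for AP-1 (6.75% of windows), CACGTG for the E-box (6.02%), TTANGTAA for the D-box (2.06%), the interferon response element, which is GAAA, any 2 bases and GAAA again (2.98%) and CCGGAAG for ETS factors (6.91%), and the 4 windows of higher genes held none of them.

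Genes lower in Pappa Nppc cells were led by a guidance receptor, a forkhead factor and keratins. Nrp2, for the semaphorin and VEGF receptor neuropilin 2 (ENSMUSG00000025969, chr1:62703285-62818695), had 6 UMIs over all Pappa Nppc cells at ZT0 (1.66 CPM) and 9 at ZT12 (1.80 CPM), against 142 and 69.2 CPM in other basal cells. It was 85.5-fold (39.1 to 233) and 38.3-fold (20.1 to 84.1) lower. The Nrp2 UMIs were mostly in Npnt-type cells, at 225 and 133 CPM, with 17.3 and 10.4 CPM in cells of neither kind. After thinning Nrp2 was seen in 0 of 141 and 2 of 232 Pappa Nppc cells (3.55% and 3.02% before), beside 11.6% and 8.84% of reference cells (19.3% and 14.9% before).

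Foxq1 was low in Pappa Nppc cells beside both other kinds. Foxq1 (ENSMUSG00000038415, chr13:31556134-31560976) was at 10.8 and 4.21 CPM, against 193 and 211 CPM in Npnt-type cells and 92.3 and 72.6 CPM in cells of neither kind. Against all other basal cells it was 14.1-fold (10.3 to 19.99) and 33.1-fold (21.6 to 53.5) lower. Of its 39 UMIs at ZT0, 20 came from 1 cell, without which its level was 5.30 CPM.

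The stress keratins were lower together. These keratins are known from wounded and activated epithelium, and 3 of 3 measured genes of the list met the size rule, with a median log2 ratio of -1.61 at ZT0 and -1.58 at ZT12. Krt16 was at 16.9 and 24.3 CPM against 147 and 145 CPM, 8.70-fold (6.72 to 11.4) and 5.97-fold (4.97 to 7.23) lower. Krt17 was at 324 and 354 CPM against 993 and 1047, and Krt6a at 1212 and 1304 against 3058 and 3889. Against cells of neither kind alone, Krt16 was the 1 gene of the 3 that met the rule. Krt24, a keratin outside that list, was at 76.5 and 23.5 CPM against 497 and 274, 6.49-fold and 11.7-fold lower.

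Genes of the differentiating layers were lower in part. Of 9 measured suprabasal genes 4 were lower (Sbsn, Krtdap, Dsg1a and Lypd3) and none higher, with medians of -0.49 and -1.53. Dsg1a, for a desmoglein of desmosomes, was at 11.3 and 11.8 CPM against 67.4 and 91.9, and Sbsn at 54.2 and 35.3 CPM against 188 and 138. Against cells of neither kind the log2 ratios of Sbsn were -0.68 and -1.41, and it was not called. Krt13 did not meet the rule against all other basal cells (2614 and 3914 CPM against 3150 and 7627). It was at 5434 and 11601 CPM in cells of neither kind, the kind with the most Krt13. Their Krt13 stands beside every comparison with those cells, and its part in them was not tested.

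Most of the lower genes were set against the Npnt-type cells. Of the 41 lower genes, 37 also met the rule against Npnt-type cells, 15 against cells of neither kind, and 11 against each. The 11 were Cdkn1a, Dsg1a, Fam25c, Foxq1, Gm94, Igfbp3, Krt16, Krt24, Ly6d, Lypd3 and Mt4, named here after their values were seen where they fall outside the 10 lowest ratios. Mt4, a metallothionein of stratified epithelium, was at 247 and 270 CPM in Pappa Nppc cells, 1077 and 760 CPM in Npnt-type cells and 1100 and 955 CPM in cells of neither kind. Trabd2b, among the 10 lowest ratios against all other basal cells (9.12 and 16.6 CPM against 95.4 and 70.8), turned direction against cells of neither kind, with log2 ratios of 0.43 and 0.63.

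Set against each kind on its own, Pappa Nppc cells shared genes with both. Against cells of neither kind 9 of 5633 genes were higher (0.16%) and 25 lower (0.444%). Against Npnt-type cells 11 of 5655 were higher (0.195%) and 80 lower (1.41%). Isl1, a LIM homeobox gene of tongue and other epithelia, was at 138 and 122 CPM in Pappa Nppc cells, 124 and 102 CPM in Npnt-type cells and 50.6 and 29.5 CPM in cells of neither kind. Sostdc1, for an inhibitor of BMP and Wnt signalling, lay between the others, at 173 and 252 CPM beside 412 and 541 CPM in Npnt-type cells and 85.5 and 94.2 CPM in cells of neither kind. Barx2, another homeobox gene, was at 448 and 525 CPM, beside 201 and 240 CPM in Npnt-type cells and 340 and 480 CPM in cells of neither kind. Sfrp1, for a secreted Wnt inhibitor, was at 148 and 106 CPM, beside 37.5 and 48.0 CPM and 102 and 94.02 CPM. These 4 genes were chosen after their values were seen. Isl1 and Sostdc1 met the size rule against cells of neither kind, and Barx2 and Sfrp1 against Npnt-type cells.

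**Figure D3:**
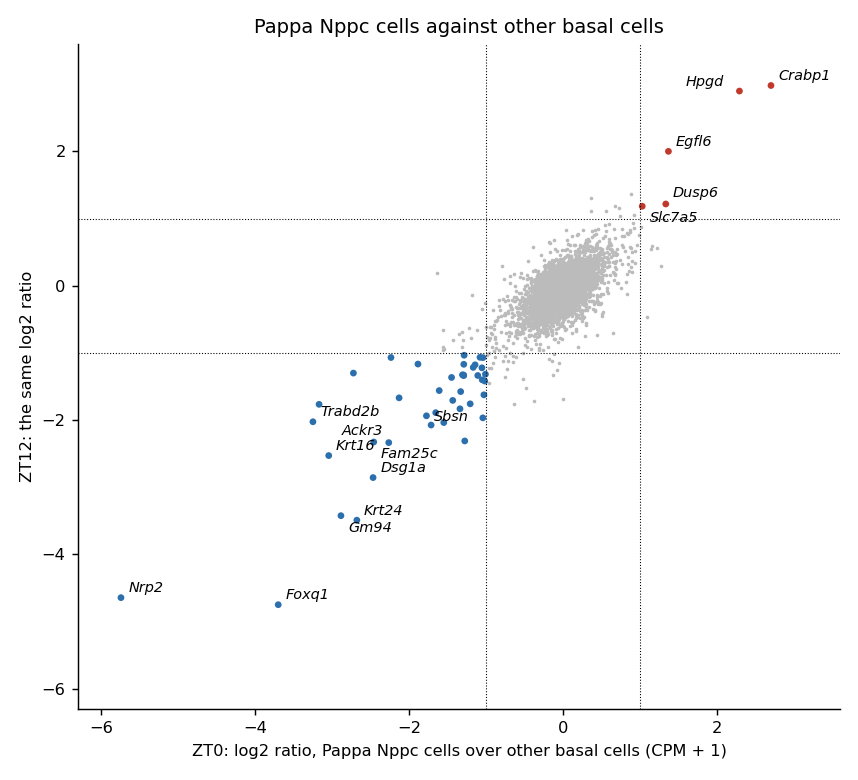
Log2 ratio of Pappa Nppc cells to other basal cells at ZT0 (horizontal axis) against that at ZT12 (vertical axis), 1 point per measured gene, with genes past the size rule in both libraries coloured, the named ones labelled and dotted lines at the 2-fold limit. Hpgd and Crabp1 lie farthest to the upper right, and Nrp2 and Foxq1 farthest to the lower left.

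The pathway of PAPP-A was measured through its substrates and receptors. Of 7 measured genes of the IGF axis none was higher and 1, Igfbp3, was lower, at 167 and 104 CPM against 550 and 442 CPM, 3.30-fold (3.03 to 3.602) and 4.24-fold (3.88 to 4.65). Igfbp4, whose product is a known substrate of PAPP-A, was at 49.2 and 120 CPM against 56.9 and 168. Igfbp5, for another substrate, was at 232 and 194 CPM against 296 and 317, and Igfbp2 was at 1166 and 1510 against 1788 and 1590. The receptor gene Igf1r was at 103 and 115 CPM against 116 and 123. None of these 4 met the size rule. Stc1, for a stanniocalcin that inhibits PAPP-A, was at 0.829 and 2.41 CPM, and Stc2 and the paralogue Pappa2 had no UMI in these cells.

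The partners of C-type natriuretic peptide were scarce in the same cells. Npr2, for its signalling receptor, was at 0.553 and 1.203 CPM, Npr1 at 2.21 and 0.802 CPM and the clearance receptor gene Npr3 at 10.2 and 7.82 CPM. Furin, for the protease that cuts the precursor, was the 1 measured gene of the list, at 52.2 and 46.9 CPM, and did not meet the size rule. Floors of 3 UMIs in these cells correspond to 0.829 CPM at ZT0 and 0.602 CPM at ZT12.

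Around Hpgd and Crabp1, the other genes of prostaglandin and retinoid handling did not stand out. Hpgd was the 1 called gene of 7 measured in the prostaglandin list, whose medians were -0.08 and 0.07, and Crabp1 the 1 called gene of 6 in the retinoid list, with medians of -0.16 and -0.21. Ptges3 was at 256 and 312 CPM and Ptges, a prostaglandin E synthase gene, at 56.1 and 47.3 CPM. Slco2a1, for the transporter that takes prostaglandins into cells, lay below the level filter, at 11.3 and 17.8 CPM against 5.93 and 5.61. Crabp2, the other cytoplasmic binding protein of retinoic acid, was at 4.97 and 2.81 CPM.

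The signalling lists were short, and over all measured genes 0.0884% were higher and 0.725% lower. Over the 12 measured genes of the EGF and FGF list the median log2 ratios were 0.10 and -0.21. Of these genes 5 were positive in both libraries and 5 negative in both. Dusp6 was the 1 higher gene of this list. Its companions Etv4 and Etv5, for ETS factors induced by FGF signalling, were at 22.4 and 43.3 CPM against 7.91 and 13.6, and at 27.4 and 29.7 CPM against 5.69 and 8.66, values noted after they were seen. Etv4 missed the level filter at ZT0 and Etv5 missed it in both libraries, so neither was measured by the rule. In the BMP and TGF-beta list 2 of 15 genes were lower, Bmp2 and Bambi. Bmp2 was at 19.3 and 19.9 CPM in Pappa Nppc cells, 83.9 and 126 CPM in Npnt-type cells and 32.1 and 30.3 CPM in cells of neither kind. None of 20 Wnt, 6 Notch or 4 Hedgehog genes met the size rule. At the shares over all genes, lists this short would mostly hold no called gene, so this is no result about these pathways. Of 25 measured transcription factor genes of oral and skin keratinocytes 3 were lower, namely Foxq1, Hopx and Maf, and none higher.

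Genes of the basal layer differed by less than the 2-fold limit from the pooled other basal cells. None of 7 measured hemidesmosome genes and none of 11 measured basement membrane genes met the rule. Krt5 was at 4195 and 5030 CPM against 5345 and 5764, and Krt15 at 7353 and 9334 CPM against 5836 and 7652. Krt14 was at 5957 and 7157 CPM against 11323 and 11808, log2 ratios of -0.93 and -0.72. In cells of neither kind Krt14 was at 7253 and 7761 CPM and in Npnt-type cells at 14041 and 16172 CPM.

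Some lists lay to 1 side without any gene past the limit. All 12 measured S-phase genes had a positive log2 ratio in both libraries, with medians of 0.63 and 0.51, as had all 20 ribosomal protein genes, with medians of 0.16 and 0.22. Of 15 AP-1 and immediate early genes 13 were positive in both, with medians of 0.35 and 0.43. Other lists without a called gene leaned the other way. Negative in both libraries were 8 of 10 NRF2 and glutathione genes, 5 of 7 hemidesmosome genes and 7 of 11 basement membrane genes. Positive in both were 2, 0 and 2 of these. The share of all measured genes with 1 sign in both libraries was not counted, so these counts are a description.

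Markers of other cell types were near 0 for most lists. Summed over the list, Langerhans and myeloid markers were at 28.5 and 16.0 CPM (ZT0 and ZT12) with Ptprc, Lyz2, Tyrobp and Fcer1g at 0. Lymphocyte markers were at 4.97 and 5.21 CPM with Cd3d, Cd3e, Cd3g, Nkg7 and Gzmb at 0, and endothelial markers at 0.553 and 1.40 CPM with Cdh5 and Kdr at 0. Taste markers summed to 34.8 and 32.9 CPM and gland markers to 21.8 and 20.7 CPM. The fibroblast list summed to 1182 and 893 CPM in Pappa Nppc cells and 1163 and 503 CPM in other basal cells, nearly all from Dcn, while Col1a1, Col1a2, Col3a1, Lum and Pdgfra were at 0. The muscle list was at 23.5 and 55.3 CPM beside 4.82 and 31.0 CPM in other basal cells, nearly all from Acta2, with Des, Myh4 and Tnnt3 at 0. Melanocyte markers were at 1.66 and 0.602 CPM.

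Pappa Nppc cells also lay together when the rule genes were left out. Within each library, basal cells were placed on 20 principal components of 1500 variable genes without the genes of the rule, and the 15 nearest cells of each were counted. On average 53.8% of the neighbours of a Pappa Nppc cell at ZT0 and 57.0% at ZT12 were Pappa Nppc cells, beside their 27.7% and 24.0% of all basal cells. Among neighbours of Npnt-type cells they were 11.9% and 12.7%, and among those of cells of neither kind 26.0% and 16.5%. Without Hpgd, Wfdc2 and Crabp1 as well, the values for Pappa Nppc cells were 53.9% and 62.1% counted as cells with mostly Pappa Nppc neighbours, against 55.3% (78 of 141) and 62.1% (144 of 232) with these genes. Leaving out the 3 markers thus moved these shares little. The cells and markers were chosen with earlier results of these data known, so the shares are a description and no separate support. Pappa Nppc cells also had the higher median depth, and its part in the shares was not tested.

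They did not form 1 closed cluster at the resolution used. Leiden clustering of the same components at resolution 1.0 gave 11 clusters at ZT0 and 13 at ZT12, and in each library 1 cluster was mostly Pappa Nppc cells. The number and makeup of clusters depend on the resolution, and no other was run. That cluster held 36 of the 141 cells (25.5%) at ZT0 and 82 of the 232 (35.3%) at ZT12. At ZT0 another cluster held more of them, 47 cells (33.3%), and at 49.5% Pappa Nppc cells it lay just under a majority. At the other end, 3 clusters in each library had under 5% Pappa Nppc cells, with 0 of 124 and 1 of 182 cells. The remaining Pappa Nppc cells were spread over the mixed clusters.

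**Figure D4:**
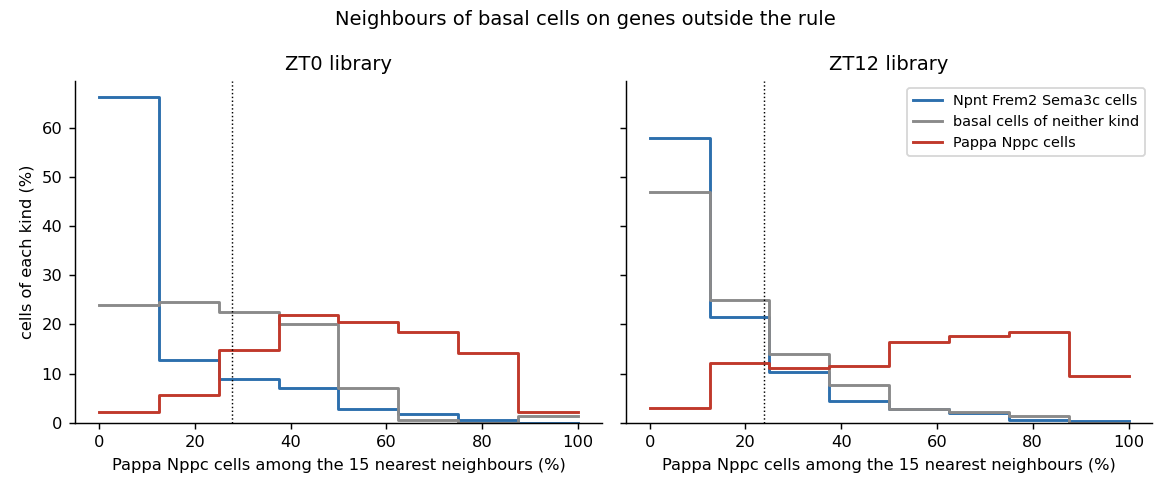
Percent of the cells of each kind (vertical axis) by the percent of Pappa Nppc cells among their 15 nearest neighbours (horizontal axis), with 1 panel per library, after the genes of the rule were left out. The dotted line marks the share of Pappa Nppc cells in all basal cells (27.7% and 24.0%), and the mean on the horizontal axis is 53.8% at ZT0 and 57.0% at ZT12 for Pappa Nppc cells and 11.9% and 12.7% for Npnt-type cells.

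The Nppc positive cells were at the upper end of the group. In the 19 ZT0 and 49 ZT12 cells with an Nppc UMI, Pappa was at 861 and 991 CPM, against 374 and 519 CPM in the 122 and 183 cells without. Hpgd was at 867 CPM (Poisson 95% interval 790 to 949) and 1923 CPM (1842 to 2006), against 421 (398 to 444) and 827 (799 to 856). Crabp1 was at 299 and 521 CPM against 117 and 204, Wfdc2 at 1037 and 751 CPM against 577 and 480, and Egfl6 at 172 and 151 CPM against 53.5 and 77.1. All of these were thus at higher levels beside Nppc in both libraries. Krt15 was at 6742 and 8822 CPM against 7459 and 9481. Median depth was 26069 and 20980 UMIs with Nppc and 25164.5 and 20631 without. Nppc is a gene of the rule, so this division is a description of these cells.

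Genes of the clock, interferon, MHC class I and replication lists were among those that differed between the libraries in Pappa Nppc cells. Among 5915 measured genes, ZT12 was higher for 37 (0.626%) and lower for 58 (0.981%), and the median log2 ratio was -0.02. In other basal cells 47 of 6015 were higher (0.781%) and 29 lower (0.482%), with a median of -0.01. Genes near 0 in 1 library passed the level filter through the other library. List counts between the libraries thus follow in part from the filter. The counts depend on settings. With cells thinned to 5000 UMIs and the Pappa Nppc cells kept as they were, 88 genes were higher and 116 lower, while with the whole rule applied to thinned cells 43 were higher and 57 lower, and with a basal limit of 20 per 10000 they were 104 and 116.

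The circadian clock is a loop in which an activator pair including BMAL1, the product of Arntl, switches on its own repressors and output genes. Dbp, an output gene for a PAR bZip factor (ENSMUSG00000059824, chr7:45705088-45710203), had 26 UMIs in Pappa Nppc cells at ZT0 (7.18 CPM, in 19 of 141 cells) and 1581 at ZT12 (317 CPM, in 225 of 232 cells), a 44.1-fold difference (30.002 to 67.8). Its log2 ratio was 5.28, and 5.41 in other basal cells. In the list of evening clock genes 6 of 7 measured were higher, and the median log2 ratio was 2.39 (2.48 and 7 of 7 in other basal cells). Per3 went from 14.6 to 144 CPM (9.86-fold, 7.45 to 13.3), Tef from 23.2 to 124 (5.34-fold), Nr1d1 from 19.1 to 109 (5.73-fold) and Nr1d2 from 15.2 to 83.8 CPM (5.52-fold). The repressor gene Bhlhe41 went from 4.14 to 61.4 CPM (14.8-fold, 8.84 to 26.8). Arntl (ENSMUSG00000055116, chr7:113207465-113314126) went from 39.5 to 2.61 CPM, 15.2-fold lower (8.59 to 29.2), and all 3 measured morning genes were lower, with a median of -1.96. Per1 was 3.63-fold higher, and its log2 ratio differed from that of other basal cells by -0.82 (-1.50 to -0.13).

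Interferon genes and genes of MHC class I, which shows peptides to T cells, were at lower levels at ZT12. Of the interferon list 7 of 7 measured genes were lower (median log2 ratio -2.26), and of the MHC class I list 10 of 11 (median -1.90). The full lists held 20 and 15 genes. The level filter takes the mean of both libraries, so genes near 0 at ZT12 were measured through their ZT0 level. These counts and medians follow in part from that. Summed over all list genes, the levels went from 2063 to 419 CPM and from 2099 to 376 CPM. In other basal cells the medians were -1.88 and -1.71, with 6 and 8 genes lower. The log2 ratio of Ifi27l2a differed from that in other basal cells by -0.93 (-1.27 to -0.59) and that of Isg15 by -1.58 (-2.72 to -0.44). The difference was -0.99 (-1.82 to -0.15) for Lgals9 and -0.86 (-1.63 to -0.10) for Psmb9. For Psmb8, Oasl2, B2m, H2-Q7 and Cxcl9 its interval included 0. Isg15, for a ubiquitin-like modifier (ENSMUSG00000035692, chr4:156199424-156200818), went from 60.2 CPM (in 51 of 141 cells) to 1.40 CPM (in 6 of 232), 42.9-fold lower (20.5 to 108). Ifi27l2a went from 574 to 16.8 CPM (34.1-fold, 27.4 to 42.9). B2m, for the light chain of class I (ENSMUSG00000060802, chr2:122147686-122153083), went from 434 to 32.7 CPM (13.3-fold, 11.3 to 15.7), and the immunoproteasome gene Psmb8 from 76.0 to 1.40 CPM (54.1-fold, 25.9 to 136). H2-Q7 went from 288 UMIs (79.6 CPM) to 0, at least 132-fold lower against a floor of 3 UMIs over the group. Class I genes such as H2-Q7 have close relatives that can share reads. Cxcl9, an interferon-induced chemokine gene, went from 62.2 CPM to 0, but all of its 225 UMIs came from 1 of the 141 cells.

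For these genes the upstream letters are shown for 1 gene of each direction whose window held matches, chosen for that reason. The capitals mark the D-box TTANGTAA in Per3 and the interferon response element, with 3 overlapping matches, in Isg15.
Per3: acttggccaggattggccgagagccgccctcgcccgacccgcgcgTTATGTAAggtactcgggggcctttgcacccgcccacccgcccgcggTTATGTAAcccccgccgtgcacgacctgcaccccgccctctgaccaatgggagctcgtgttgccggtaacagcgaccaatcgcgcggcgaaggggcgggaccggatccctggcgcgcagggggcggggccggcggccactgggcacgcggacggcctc
Isg15: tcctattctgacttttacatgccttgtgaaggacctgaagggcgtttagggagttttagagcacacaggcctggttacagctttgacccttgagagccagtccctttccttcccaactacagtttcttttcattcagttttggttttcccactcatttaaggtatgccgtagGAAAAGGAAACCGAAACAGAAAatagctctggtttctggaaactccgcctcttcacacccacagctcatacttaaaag
The Per3 window lies at chr4:151044666-151044915 and the Isg15 window at chr4:156200819-156201068, both on the minus strand. The Per3 matches begin 205 and 158 bases before the start, and the Isg15 matches 78, 72 and 66 bases before it. Of the 10 named genes higher at ZT12, all with a window, 1 held the D-box and 3 (Bhlhe41, Per1 and Tef) the E-box, beside 2.06% and 6.02% of all windows. The TEAD motif was held by 2 of them (Nr1d2 and Uhrf1) and the ETS motif by 1 (Per1), beside 12.6% and 6.91%. Per1, Tef and Uhrf1 have 2 windows each, and a match in any window counted, while the shares are of single windows. Of 9 named genes lower at ZT12 with a window, 3 (B2m, Isg15 and Lgals9) held the interferon element, beside 2.98% of all windows. A match says nothing here of binding.

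Part of the DNA replication genes were higher at ZT12. Of 21 measured S-phase genes 9 were higher, with a median log2 ratio of 0.93 (0.96 and 9 in other basal cells). Mcm2, for a subunit of the replicative helicase, went from 21.3 to 65.4 CPM (3.07-fold), and Uhrf1, for a factor that maintains DNA methylation, from 17.7 to 53.5 CPM (3.03-fold). Rgcc, a cell cycle regulator gene, went from 5.25 to 35.9 CPM (6.84-fold). The cells were limited for mitosis genes by the rule, so cycling itself was not measured in them.

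Several named genes, Hpgd, Egfl6 and Wfdc2 among them, had ratios of ZT12 to ZT0 that differed between Pappa Nppc cells and other basal cells by more than counting error. Hpgd was 2.20-fold higher at ZT12 (2.08 to 2.32), a log2 ratio of 1.14 beside 0.52 in other basal cells, a difference of 0.61 (0.47 to 0.75). With the stricter basal limit of 20 per 10000 this difference was 0.18. For Egfl6 the difference was 0.65 (0.32 to 0.98), with log2 ratios of 0.39 and -0.24, and for Wfdc2 0.49 (0.38 to 0.60), with -0.25 and -0.74. For Hmcn1 it was 0.81 (0.24 to 1.39), but its UMIs chose the cells, so this value is a description. Among the 10 named lower genes such differences went both ways. They were 1.29 (0.69 to 1.88) for Trabd2b and 0.54 (0.08 to 0.99) for Krt16. For Foxq1 the difference was -1.21 (-1.97 to -0.44), for Krt24 -0.84 (-1.16 to -0.53) and for Gm94 -0.54 (-0.87 to -0.21). Crabp1 was at a ratio of 1.91 (1.72 to 2.11), short of the limit, with a difference of 0.27 (-0.02 to 0.56) from other basal cells. Pappa was at 1.40 (1.32 to 1.49), with a difference of 0.19 (-0.10 to 0.48). For Dusp6 it was -0.10 (-0.46 to 0.25) and for Slc7a5 0.16 (-0.16 to 0.48). Differences for these 4 genes were thus not detectable beside counting error.

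Differentiation genes differed less between the libraries in Pappa Nppc cells than in other basal cells. Of 8 measured suprabasal genes none met the rule in Pappa Nppc cells, while 3 were higher at ZT12 in other basal cells. Krt4 had a log2 ratio of 0.48 against 1.58, a difference of -1.10 (-1.21 to -0.99), Krt13 0.58 against 1.28, a difference of -0.69 (-0.73 to -0.65), and Tgm3, for a transglutaminase, 0.88 against 1.92, a difference of -1.05 (-1.50 to -0.60). Beside this, cells of neither kind, which carried the most Krt13, were a larger part of basal cells at ZT12, and their part in the difference was not tested. Kitl, for the ligand of the receptor KIT, went from 15.7 to 37.7 CPM in Pappa Nppc cells, a log2 ratio of 1.21 beside 0.23.

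**Figure D5:**
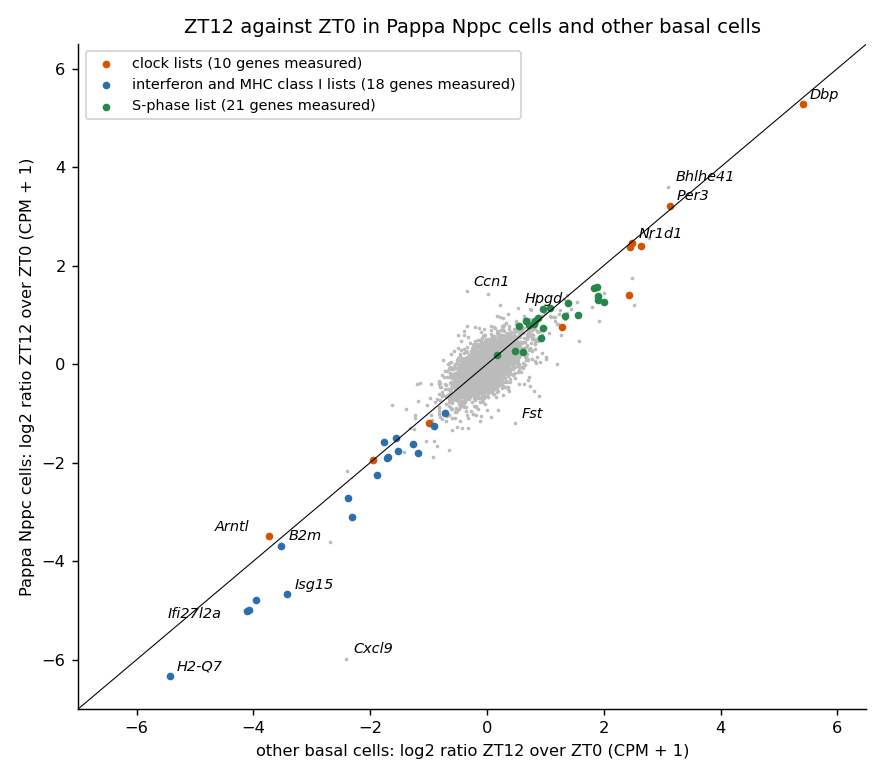
Log2 ratio of ZT12 to ZT0 in other basal cells (horizontal axis) against that in Pappa Nppc cells (vertical axis), 1 point per measured gene, with the measured genes of the clock, interferon and MHC class I, and S-phase lists coloured and a line where both ratios are equal. Dbp lies at 5.41 and 5.28, Isg15, Ifi27l2a and H2-Q7 lie at the lower left, and Fst and Ccn1 lie off the line on opposite sides.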

How the data were processed

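Single-cell RNA-seq counts of mouse tongue epithelium were used, 1 library per time. The authors deposited raw UMI counts for 32285 genes, per the file headers whole-number matrices. The file headers name Cell Ranger 4.0.0, while version 2.1.1, with mm10, stands in the submitters' processing notes, and this was not settled. Gene positions came from GENCODE M21 by Ensembl identifier (32158 found). The counts were not corrected for free RNA, and overlapping genes or close copies can share reads.

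Of 1726 and 2819 barcodes, 1525 and 2553 had at least 500 genes, 5000 UMIs and under 10% mitochondrial UMIs. Pappa Nppc cells had 7822 to 53033 UMIs at ZT0 and 8884 to 53268 at ZT12, 3619238 and 4987204 in sum. Scrublet called 1 and 2 doublets (0.0656% and 0.0783%), too few to have worked, so doublets were in effect kept. An alternative drops the highest 5% of scores. UMIs were summed over cells per library and given as CPM, with ratios of CPM plus 1 on the log2 scale, exact conditional binomial intervals for ratios, Clopper-Pearson intervals for shares and Poisson intervals for levels, at 95% and for counting error only. UMIs of 1 library are not independent of the animals behind it.

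The 15 genes of the cell rules were left out of counts of genes. Genes were named by rule: up to 15 highest and 10 lowest against other basal cells, 10 in each direction between the libraries, the 6 given markers, and up to 4 in each of 45 lists. Members and lists were chosen with earlier results of these data known. The size rule was tested on simulated data. Python 3.11.15, scipy 1.17.1, scanpy 1.11.5, leidenalg 0.10.2 and edgeR 4.0.16 (TMM factors as an alternative) were used. Promoter letters came from RefSeq GRCm38.p6, with a window for 30 of 38 genes sought. Alternatives covered the cell limits, the level filter, the 2-fold limit, the pseudocount, scaling, thinning and the cells compared with.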

Additional observations from a re-analysis of the deposited data

Results flagged for a closer look

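Fst, for the activin antagonist follistatin, went from 31.8 CPM at ZT0 to 13.2 CPM at ZT12 in Pappa Nppc cells, a log2 ratio of -1.20, and had a log2 ratio of 0.48 in other basal cells. Its UMIs were in 26 of 141 and 23 of 232 cells. Ccn1, for a matricellular protein of the YAP target list, went from 14.4 to 41.7 CPM, a log2 ratio of 1.47 beside -0.35, and was seen in 21 and 46 cells. Both genes went opposite ways in the 2 groups, and with 1 library per time the difference was not tested over samples.

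Cells outside the basal rule also passed the Pappa part of it, with at least 3 UMIs of Pappa, Nppc and Hmcn1 and more than of Npnt, Frem2 and Sema3c. Among cells with basal genes and mitosis genes above the limit, 20 of 85 passed at ZT0 (23.5%, where a count of 0 would allow 3.53%) and 10 of 32 at ZT12 (31.25%, beside 9.38%). In these cycling cells Hpgd was at 640 and 1277 CPM and Crabp1 at 284 and 343 CPM, against 116 and 561 CPM and 25.9 and 199 CPM in the cycling cells that did not pass. Among cells under the basal limit that were not cycling, 58 of 829 passed at ZT0 (7.00%, beside 0.362%) and 94 of 1542 at ZT12 (6.10%, beside 0.195%). Their Hpgd was at 281 and 459 CPM against 51.6 and 65.0 CPM in those that did not pass. These 2 groups also differed in genes of the layers. The median adhesion gene level was 6.78 and 5.12 per 10000 UMIs in cells that passed and 0.763 and 1.12 in the others. Krt13 was at 12025 and 19321 CPM against 28726 and 34954 CPM. The part of layer in the Hpgd values was not tested. Of the reference cells, which hold few basal transcripts, 2.17% and 2.67% passed.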

How the results depend on the processing

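Of 200 values of the 13 main results under alternatives, 160 stayed close to the value reported and 40 did not. A turn of direction was looked for only in the Hpgd difference, which did not turn. Close means within 1.5 times for a count of genes and within the 95% counting interval of the reported value for a share or ratio. The Dusp6 ratio to other basal cells fell below the limit, to a log2 ratio of 0.35, at a basal limit of 20 per 10000. Of 710 values for single genes 1 turned direction, Trabd2b at 0.43 against cells of neither kind. The cause was not tested for any of them, apart from counts that follow from a looser or stricter limit. The share of Pappa Nppc cells was 27.3% at ZT12 with at least 2 UMIs, 21.8% and 18.8% (ZT0 and ZT12) with at least 5, 23.3% and 18.2% with a basal limit of 20 per 10000, and 21.0% and 20.1% when the Pappa genes had to lead 3 times. Genes higher and lower than in other basal cells were 19 and 89 at a mean CPM minimum of 5, 2 and 25 at 50, 41 and 139 with none, 33 and 107 at 1.5-fold, 9 and 25 against cells of neither kind (with 1 stress keratin), 16 and 67 in the ZT0 library alone, and 16 and 76 in the ZT12 library alone, the last 2 settings added after seeing the data. Genes higher and lower at ZT12 were 81 and 165 at a minimum of 5, 17 and 19 at 50, 175 and 348 with none, 157 and 212 at 1.5-fold, 88 and 116 after thinning with the same Pappa Nppc cells (43 and 57 with the rule applied to thinned cells), and 104 and 116 at a basal limit of 20. Interferon genes lower at ZT12 were 17, 2 and 19 at these minimums and 12 at that basal limit. The Hpgd difference was 0.18 at that basal limit and 0.43 when the Pappa genes led 3 times. Likeness on other genes stayed within these bounds under every setting run. No paired analysis was possible because there is 1 library per time and the labels give no replicate numbers.

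Depth limits genes under about 20 CPM, and doublets, free RNA and the sort were not separated from the values given.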
